A study of Mus musculus with 20 samples.

Results

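The genes described here make, break down and read out the cyclic nucleotides cAMP and cGMP: the phosphodiesterases (Pde), the adenylyl cyclases (Adcy), the subunits of cAMP-dependent protein kinase A (PKA), the EPAC exchange factors Rapgef3 and Rapgef4, and the transcription factors Creb1, Crem and Atf1. Members were taken by gene symbol, as every symbol that begins with Pde or Adcy and a number or names a PKA subunit, with the 5 added genes. This gave 48 of the 78258 genes in the count table, and 45 of them had enough counts to be tested. The group was picked because Pde4c had been noticed to differ between genotypes on the uninjured side of these same mice, so that difference is given as a description and nothing is read from it.

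RNA came from dorsal root ganglia (DRG) of the lumbar spine, where sensory neurons have their cell bodies, each with an axon branch to the periphery and another to the spinal cord. Of 10 male mice, 5 were conditional knockouts (cKO), Ahr fl/fl with Thy1CRE-ERT2/EYFP, and 5 were controls, which the titles call wild type and the genotype text gives as Ahr f/f or f/+. Ahr encodes the aryl hydrocarbon receptor, a ligand-activated transcription factor. All 10 mice, controls included, received tamoxifen at 100 mg/kg into the peritoneum for 5 days at 17 weeks of age. After 4 weeks the sciatic nerve was cut on 1 side, and ganglia L4 to L6 were taken 1 day later, at zeitgeber time 2 to 4 h. Each mouse gave a contralateral (uninjured side) and an ipsilateral (injured side) library, so there were 4 groups of 5 libraries. The Thy1 promoter drives Cre mainly in neurons, whereas the libraries hold RNA of the whole ganglion, glia, vessels and connective tissue included. The comparisons ask how this gene set responded to nerve injury and whether the response or the resting level differed with the Thy1-driven deletion of Ahr.

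Libraries held 76.2 to 118.5 M counts. Expression is given as CPM, counts scaled to the size of each library with TMM factors, as mean ± SD with n = 5. Ahr itself was at 24.2 ± 2.10 CPM in control and 20.4 ± 0.536 CPM in cKO contralateral libraries, and at 34.4 ± 2.86 and 31.9 ± 2.94 CPM on the ipsilateral side. The genotypes did not overlap on the contralateral side and overlapped on the ipsilateral side, and most Ahr RNA remained in the cKO ganglia. The 10 sensory neuron markers summed to 10498 ± 642 CPM in control contralateral libraries, and no marker of any of the 10 cell type lists was at 0 in any group. After injury 6 of 65 such markers rose and 4 fell in control mice, 3 rose and 4 fell in cKO mice, and between genotypes 0 were called on either side. Of all genes 13.8% rose and 16.0% fell in control and 16.2% and 15.1% in cKO mice. Called or not, 6 of 6 fibroblast markers had a positive injury change in control mice (median log2 fold change 0.32) and 1 of 6 in cKO mice (-0.48). Neutrophil markers were positive in 5 of 5 and 1 of 5 (0.59 and -0.10). For macrophages this was 9 of 9 and 7 of 9 (0.50 and 0.20), and for sensory neurons 3 of 10 in each (-0.039 and -0.11). In bulk tissue, fewer cells of a type and less RNA per cell cannot be told apart.

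cAMP is made from ATP by adenylyl cyclases, most of which are switched on by receptors coupled to the stimulatory G protein. It frees the catalytic subunits of PKA from their regulatory subunits, opens the EPAC factors towards the small GTPase Rap, and ends when a phosphodiesterase hydrolyses it. PKA that reaches the nucleus phosphorylates CREB, and Crem, a relative of Creb1, also yields the short repressor ICER from an internal promoter that is itself driven by cAMP. In sensory neurons, raised cAMP is known from textbook experiments to sensitise nociceptors and to help injured axons grow, and inhibitors of the PDE4 enzymes raise it.

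Close relatives in the set moved in opposite directions after injury: Pde4a and Pde4d were lower on the injured side while Pde4b and Pde1c were higher. The promoter windows of these genes and of Pde4c are shown so that their sequences can be set beside those values. RefSeq gives 3 windows for Pde4a, 4 for Pde4b, 3 for Pde1c and 1 each for Pde4c and Pde4d; of genes with several, those that hold any of 4 motifs are printed, and the other windows hold none. They are of build GRCm38.p6, run 5′ to 3′ on the strand of the gene and cover 250 bases before to 50 after an annotated start. Capitals mark any match, on either strand, to 4 motifs: TGACGTCA (the cAMP response element), TGACG (a shorter form of that element, which lies within it), GCGTG (the core bound by the aryl hydrocarbon receptor) and TGANTCA (the AP-1 site).
Pde4a (chr9:21165464-21165763, plus strand): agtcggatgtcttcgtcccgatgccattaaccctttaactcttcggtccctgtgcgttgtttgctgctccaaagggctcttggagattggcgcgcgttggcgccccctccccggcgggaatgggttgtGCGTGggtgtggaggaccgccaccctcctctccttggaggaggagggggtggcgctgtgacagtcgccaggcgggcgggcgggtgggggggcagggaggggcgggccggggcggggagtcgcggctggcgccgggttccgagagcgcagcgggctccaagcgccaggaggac
Pde4a (chr9:21183851-21184150, plus strand): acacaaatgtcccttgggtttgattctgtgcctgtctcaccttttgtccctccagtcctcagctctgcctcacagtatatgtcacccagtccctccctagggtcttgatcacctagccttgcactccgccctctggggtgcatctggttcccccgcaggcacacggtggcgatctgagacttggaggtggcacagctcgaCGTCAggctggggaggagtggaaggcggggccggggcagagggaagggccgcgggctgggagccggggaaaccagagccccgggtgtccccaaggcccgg
Pde4b (chr4:102421305-102421604, plus strand): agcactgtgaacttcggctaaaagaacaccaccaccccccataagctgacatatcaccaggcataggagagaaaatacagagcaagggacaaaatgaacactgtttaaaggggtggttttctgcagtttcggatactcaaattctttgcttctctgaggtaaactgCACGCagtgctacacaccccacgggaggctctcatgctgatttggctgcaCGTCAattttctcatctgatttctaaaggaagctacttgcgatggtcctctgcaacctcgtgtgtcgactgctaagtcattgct
Pde4c (chr8:70723814-70724113, plus strand): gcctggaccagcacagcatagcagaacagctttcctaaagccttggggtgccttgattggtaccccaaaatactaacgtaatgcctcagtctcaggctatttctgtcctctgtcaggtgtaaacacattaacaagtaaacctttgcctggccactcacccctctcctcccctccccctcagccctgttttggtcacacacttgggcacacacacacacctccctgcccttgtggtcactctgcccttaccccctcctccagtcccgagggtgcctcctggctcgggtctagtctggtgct
Pde4d (chr13:108653927-108654226, plus strand): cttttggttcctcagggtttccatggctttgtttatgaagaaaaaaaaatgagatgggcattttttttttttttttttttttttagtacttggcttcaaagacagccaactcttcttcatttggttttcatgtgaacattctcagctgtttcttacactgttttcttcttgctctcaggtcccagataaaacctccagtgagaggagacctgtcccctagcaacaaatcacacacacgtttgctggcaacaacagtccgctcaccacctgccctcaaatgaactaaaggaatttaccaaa
Pde1c (chr6:56369585-56369884, minus strand): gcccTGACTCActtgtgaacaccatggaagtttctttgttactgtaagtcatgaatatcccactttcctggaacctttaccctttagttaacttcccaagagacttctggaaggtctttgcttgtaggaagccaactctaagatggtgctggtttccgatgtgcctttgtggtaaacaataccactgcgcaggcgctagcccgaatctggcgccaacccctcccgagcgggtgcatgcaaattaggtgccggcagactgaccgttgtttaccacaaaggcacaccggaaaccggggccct
Of the Pde4a windows, 1 held the GCGTG core, 1 the short form TGACG and 1 none of the motifs. For Pde4b 1 of 4 windows held a motif, with TGACG and the GCGTG core, and for Pde1c 1 of 3, with an AP-1 match near its upstream end, and the Pde4c and Pde4d windows held none of the 4 motifs.

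Promoter windows were matched for 37 of the 48 members, 75 windows in all, and several genes have more than 1 start. Crem and Pde7a were among the members without a window, so they were not searched. The full cAMP response element lay in windows of 1 member, Prkar1a. TGACG lay in windows of 16 members, the GCGTG core in those of 22 and the AP-1 site in those of 5. Since members have more windows per gene than genes at large, the shares are given per window: the full element was in 2.67% of member windows and 1.79% of all 32851 windows, TGACG was in 24.0% and 20.8%, the GCGTG core in 32.0% and 32.4%, and the AP-1 site in 6.67% and 7.81%. Such matches are descriptions of letters in a window, not binding sites.

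Levels were compared between genes as CPM per kilobase of merged exons, averaged over the 20 libraries. PKA subunits were the most abundant members, and among the regulatory ones Prkar1a was at 212.6, Prkar1b at 172.6, Prkar2b at 99.7 and Prkar2a at 52.9 CPM per kb. Of the catalytic subunits, Prkaca stood at 109.3 and Prkacb at 37.2 CPM per kb. Among the genes that make or break down cAMP, levels were lower: Adcy5 led the cyclases at 12.6 CPM per kb, ahead of Adcy2 at 10.8, and Pde11a led the phosphodiesterases that hydrolyse both cyclic nucleotides at 11.1 CPM per kb. Among the EPAC factors, Rapgef4 (EPAC2) stood at 24.6 and Rapgef3 (EPAC1) at 1.01 CPM per kb. At the low end, Pde6a, Pde6b, Pde6g and Pde6h, the photoreceptor-type genes, passed the count filter at under 1 CPM per kb. Adcy10 (soluble adenylyl cyclase), Pde6c and the pseudogene Prkaca-ps1 did not pass it, with at most 18 counts in a library. Reads of Prkaca-ps1 and Prkaca may be shared, since a pseudogene copy resembles its source gene.

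**Figure D1:**
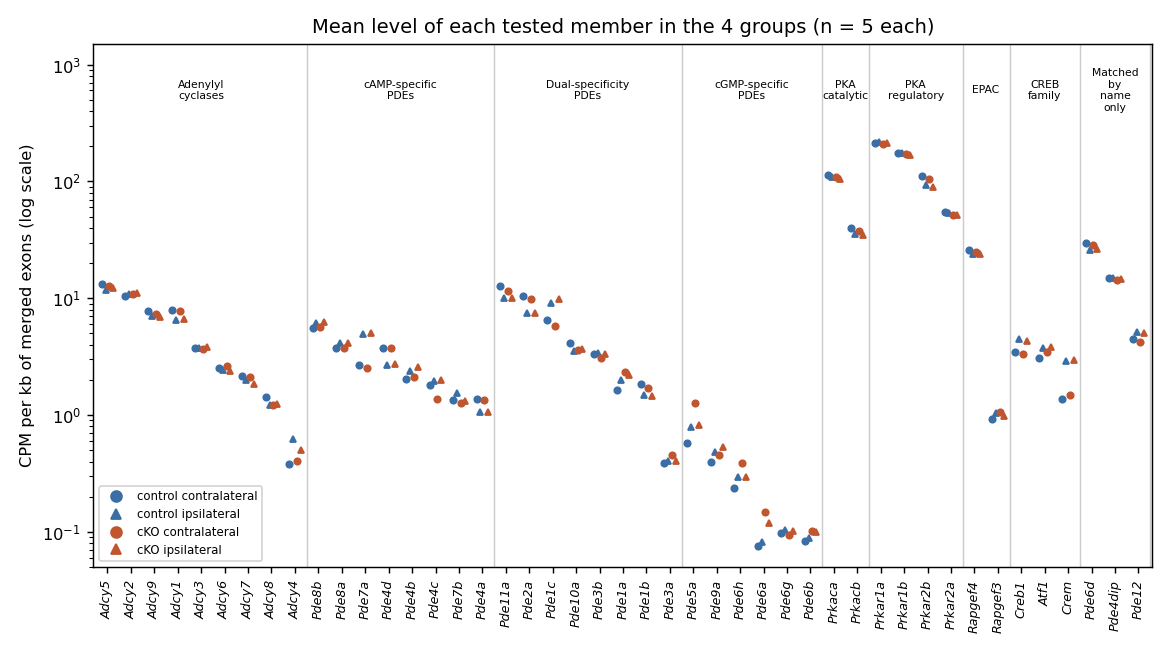
Mean CPM per kilobase of merged exons (log axis) of the 45 tested members, grouped by role, in the 4 groups of 5 libraries. PKA subunits lie highest, from Prkar1a at 212.6 to Prkacb at 37.2 averaged over all libraries, and the photoreceptor-type Pde6 genes lie lowest.

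Nerve injury changed the RNA of 20 of the 45 tested members in control mice, 8 higher and 12 lower, at an adjusted p under 0.05 (edgeR quasi-likelihood test, Benjamini-Hochberg over all tested genes). The same test called 29.9% of all 28564 genes, 13.8% upwards and 16.0% downwards. In cKO mice 19 of 45 changed, 9 of them rising and 10 falling, against 31.3% of all genes, 16.2% higher and 15.1% lower. The cKO count includes Pde4c, whose contralateral cKO libraries chose the set; without it 18 of 44 changed, 8 rising and 10 falling. Of all genes that averaged 5 CPM or more, 43.5% were called in control mice, beside 19 of the 39 members at that level (48.7%). In cKO mice these shares were 45.5% and 48.7%, or 47.4% without Pde4c. The share of members called was thus close to that of other genes of similar abundance. The median size of the log2 change was 0.18 over members and 0.16 over all genes in control mice, and 0.16 and 0.17 in cKO mice. The median signed change was 0.034 and -0.0074 over members and -0.0047 and -0.03 over all genes, control and cKO mice in turn.

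The same direction was called in both genotypes for 15 members, and the background for such a shared call was 21.4% of all genes. The 6 higher were Creb1, Crem, Pde12, Pde1c, Pde4b and Pde7a (background 11.4%). The 9 lower were Adcy1, Pde11a, Pde1b, Pde2a, Pde4a, Pde4d, Pde6d, Prkacb and Prkar2b (background 9.96%). The 2 injury comparisons use different mice. Libraries of the 2 sides did not overlap for 16 members in control mice, against 23.6% of all genes. In cKO mice this held for 12, or 11 without Pde4c, against 20.2%. The backgrounds of shared calls and of overlap are over all tested genes. Of the 45 members 39 averaged 5 CPM or more, and no share of such genes was taken for these counts.

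**Figure D2:**
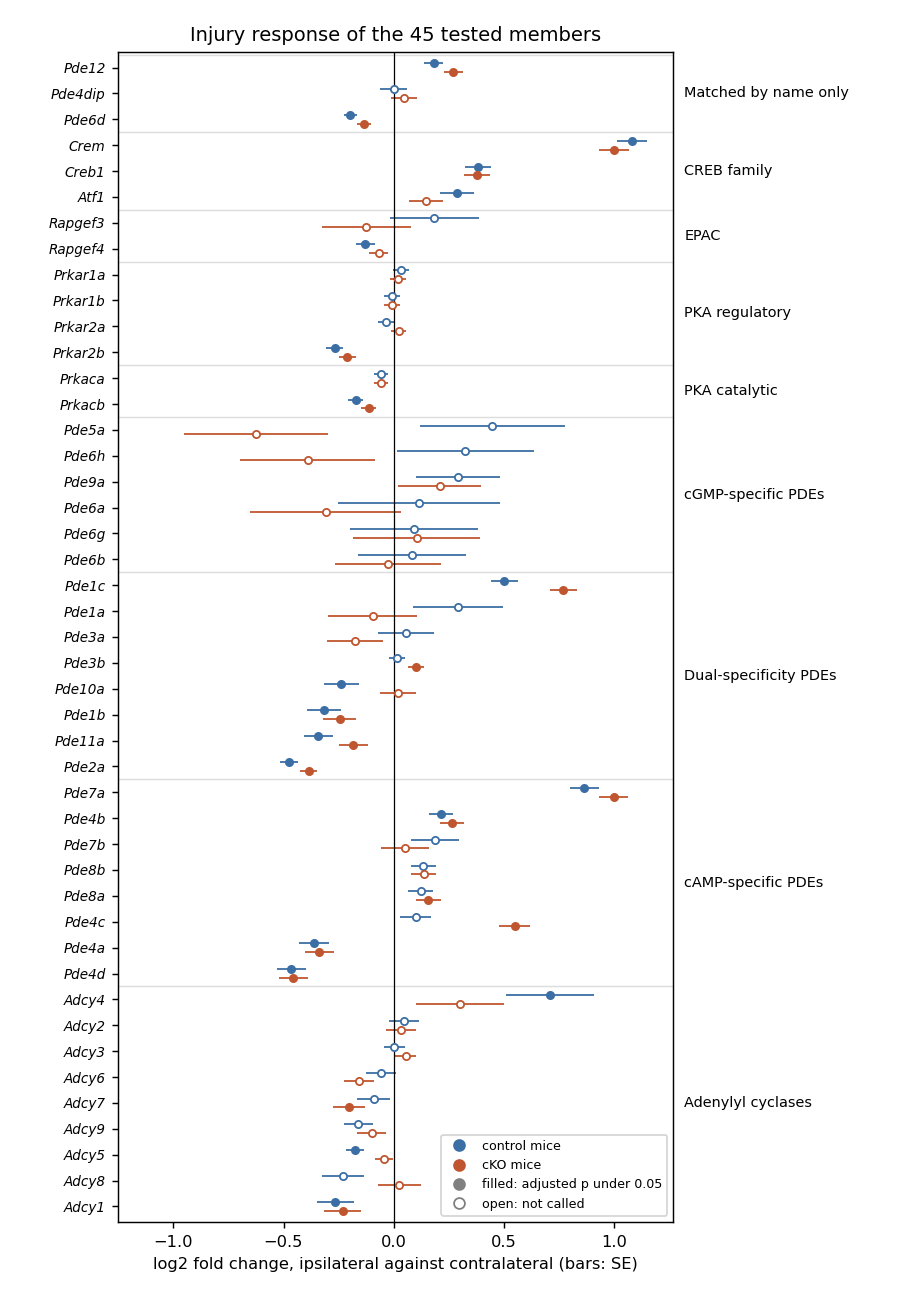
Log2 fold change on the injured against the uninjured side (points) with its SE (bars) for the 45 tested members, by role, in control (blue) and cKO (orange) mice; filled points were called. Crem and Pde7a lie farthest to the right in both genotypes among called members, and Pde4d and Pde2a farthest to the left.

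Among the nuclear targets of PKA, Crem doubled after injury. In the contralateral libraries of control mice H62, H63, H65, H96 and H97, Crem stood at 9.09, 7.23, 8.43, 7.68 and 8.15 CPM, and in their ipsilateral libraries at 17.3, 17.1, 17.7, 16.8 and 17.0 CPM. In cKO mice H61, H64, H95, H99 and H100 it went from 8.39, 8.52, 9.88, 7.67 and 9.60 to 18.4, 18.9, 18.1, 16.8 and 16.0 CPM. Every injured-side library lay above every uninjured-side library, and the ranges of the 2 genotypes overlapped on each side. The log2 fold change was 1.08 (SE 0.0683, adjusted p 1.217e-10) in control and 1.00 (SE 0.0682, adjusted p 3.141e-10) in cKO mice. Gene-level counts do not tell full-length Crem from ICER. Creb1, the constitutive factor of the family, rose in control mice from 47.6 ± 3.75 to 62.04 ± 5.25 CPM. In cKO mice it rose from 45.6 ± 2.38 to 59.2 ± 3.49 CPM. The log2 fold change was 0.38 in each genotype (adjusted p 3.957e-05 and 4.432e-05), higher in 5 of 5 mice of each genotype. Atf1, the third factor, went from 9.35 ± 0.809 to 11.4 ± 0.379 CPM in control mice, where it was called (log2 fold change 0.29, adjusted p 0.00597), and from 10.6 ± 1.28 to 11.7 ± 0.995 CPM in cKO mice, where it was not.

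Of the 8 cAMP-specific phosphodiesterases, Pde7a, a high-affinity enzyme, had the largest rise that was called in both genotypes. Its contralateral values in control mice were 20.4, 20.6, 20.5, 21.3 and 22.2 CPM, and its ipsilateral values 37.8, 38.5, 39.1, 36.7 and 39.2 CPM (mice in the order given for Crem). In cKO mice they were 20.7, 17.4, 17.6, 20.5 and 21.4 CPM on the uninjured side and 39.3, 44.96, 40.3, 33.2 and 37.1 CPM on the injured side. The sides were far apart in every mouse, and the cKO libraries spread more widely than the controls. The log2 fold change was 0.87 (SE 0.0665, adjusted p 2.566e-09) in control and 1.00 (SE 0.0667, adjusted p 2.348e-10) in cKO mice. Its relative Pde7b was not called in either genotype, but with mouse as a block it was called in control mice (log2 fold change 0.19, adjusted p 0.0258).

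The PDE4 enzymes, the targets of rolipram, divided. Pde4d, the most abundant of them per kb, was at 44.8, 42.1, 45.9, 41.7 and 50.1 CPM contralaterally and at 32.2, 31.3, 33.6, 32.0 and 33.7 CPM ipsilaterally in control mice. In cKO mice it was at 46.7, 39.0, 42.8, 50.9 and 45.3 CPM and at 32.7, 29.8, 30.5, 34.9 and 36.0 CPM. All injured-side libraries were below all uninjured-side ones, with log2 fold changes of -0.46 (adjusted p 1.068e-05) in control and -0.45 (adjusted p 1.334e-05) in cKO mice. Pde4a fell as well, by 0.36 and 0.34 on the log2 scale (adjusted p 2.646e-04 and 5.119e-04), in 5 of 5 mice of each genotype. Pde4b, by contrast, rose, in control mice from 21.5 ± 1.245 to 25.01 ± 1.496 CPM and in cKO mice from 22.5 ± 1.40 to 27.1 ± 1.71 CPM (log2 fold change 0.22 and 0.27, adjusted p 0.00437 and 6.832e-04), again in 5 of 5 mice of each.

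Per kilobase and leaving out Pde4c, whose values chose the set, Pde4d made up 52.3% ± 2.09 of the summed RNA of Pde4a, Pde4b and Pde4d in control contralateral libraries and 44.1% ± 1.41 in ipsilateral ones, while the share of Pde4b went from 28.6% ± 2.07 to 38.5% ± 1.84. In cKO mice the share of Pde4d went from 51.7% ± 1.496 to 42.9% ± 1.72 and that of Pde4b from 29.5% ± 1.89 to 40.3% ± 2.34. The summed level of these 3 genes was 7.15 ± 0.296 and 6.14 ± 0.158 CPM per kb in control and 7.23 ± 0.526 and 6.37 ± 0.343 CPM per kb in cKO libraries, contralateral and ipsilateral in turn. With Pde4c it was 8.96 ± 0.333 and 8.09 ± 0.212 in control and 8.59 ± 0.560 and 8.37 ± 0.347 CPM per kb in cKO libraries. Sums and shares were not tested.

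**Figure D3:**
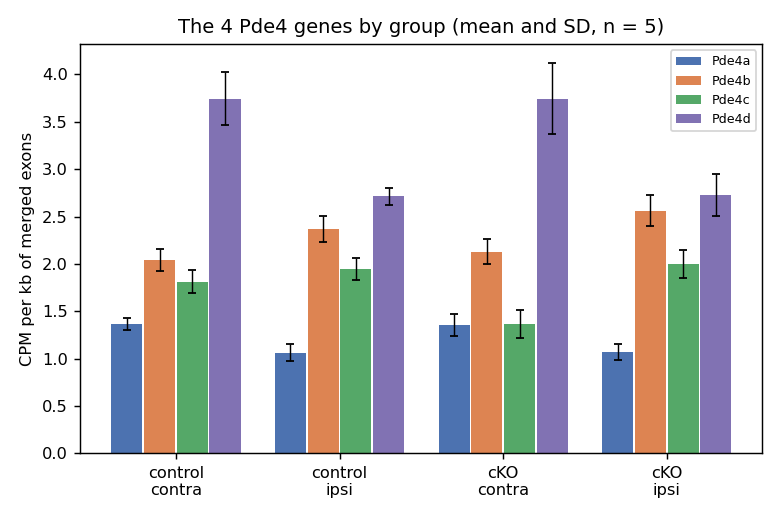
Level of the 4 Pde4 genes (bars, mean CPM per kilobase of merged exons; lines, SD; n = 5) in the 4 groups. Pde4d is the highest bar in each group and is lower on the injured side in both genotypes, and the Pde4c bar is lowest in cKO contralateral libraries, where its share is 15.9%.

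Pde4c, the gene that drew attention to the set, was at 9.53, 10.01, 9.53, 11.2 and 10.4 CPM in the contralateral libraries of control mice and at 8.47, 7.996, 6.98, 8.15 and 6.59 CPM in those of cKO mice. All 5 cKO libraries lay below all 5 controls, with means of 7.64 ± 0.807 and 10.1 ± 0.685 CPM and a log2 difference of -0.41. These values chose the gene, so neither its place past the threshold nor the gap between the groups is evidence about it. For reference, 0.0735% of all genes were called in that comparison and 1.52% did not overlap, and Pde4c was the 1 member of 45 in each count. At an unadjusted p under 0.05 there were 16 of 45 members, or 15 of 44 without Pde4c, and 17.5% of all genes. Over all 45 members that count was 3 with the fibroblast marker score as a covariate (5.5% of all genes). It was 4 with only the libraries compared (12.1%) and 15 with DESeq2 (16.6%). Leaving out 1 mouse gave 3 without H95 (11.3%), 8 to 10 without H63, H64, H65, H97 or H100 (11.8% to 14.1%), and 13 to 19 without H61, H62, H96 or H99 (16.1% to 26.1%). With the fibroblast marker score as a covariate the log2 difference of Pde4c was -0.30.

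On the injured side, which the choice did not use, Pde4c was at 10.1, 11.2, 11.8, 10.9 and 10.4 CPM in control and at 12.3, 11.3, 11.1, 9.94 and 11.3 CPM in cKO libraries. The genotypes overlapped there, and the difference of 0.308 CPM gave p 0.532 in a two-sided exact permutation test, where the smallest p possible with 5 against 5 is 0.00794. From the uninjured to the injured side Pde4c was higher in 5 of 5 cKO mice (log2 change 0.55, SE 0.0707) and in 3 of 5 control mice (log2 change 0.10, SE 0.0703). Both changes share the contralateral libraries that singled the gene out, and are given as descriptions. The share of Pde4c in the PDE4 sum was 15.9% ± 1.68 in cKO contralateral libraries, beside 20.2% ± 1.21 in control contralateral, 24.0% ± 1.12 in control ipsilateral and 23.9% ± 1.82 in cKO ipsilateral libraries.

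Pde8a and Pde8b, enzymes with very high affinity for cAMP, differed little between sides. Pde8a was called in cKO mice alone (15.1 ± 1.01 to 16.9 ± 1.29 CPM, log2 fold change 0.16, adjusted p 0.0400, higher in 4 of 5 mice). That call was lost with mouse as a block (adjusted p 0.0642), with only the libraries compared (adjusted p 0.0585), with limma on log2 FPKM (adjusted p 0.137 and 0.155), and without H61, H64, H97 or H100 (log2 fold change 0.11 to 0.17). Pde8b was called in neither genotype.

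Phosphodiesterases that hydrolyse both cAMP and cGMP showed a rise of Pde1c in both genotypes, a rise of Pde3b in cKO mice and several falls. Pde1c, which calcium and calmodulin activate, was at 135, 131, 129, 124 and 132 CPM in control contralateral and at 188, 197, 185, 169 and 183 CPM in control ipsilateral libraries. In cKO mice it was at 123, 101, 106, 133 and 114 CPM and at 203, 215, 198, 186 and 181 CPM. No uninjured-side library reached the lowest injured-side library in either genotype. The 3 lowest values of the cKO uninjured side were those of H64, H95 and H100, whose fibroblast markers summed to 1338 to 1732 CPM, against 802 and 835 CPM in the other 2 libraries. The log2 fold change was 0.50 (SE 0.0619, adjusted p 2.319e-06) in control and 0.77 (SE 0.0621, adjusted p 5.062e-09) in cKO mice, and their difference of 0.27 was not called (adjusted p 0.485). With the fibroblast marker score as a covariate the changes were 0.55 and 0.70. Pde1b, its sister gene, fell by 0.32 in control (adjusted p 0.00279) and by 0.25 in cKO mice (adjusted p 0.0166) on the log2 scale. The cKO call was lost without H100 (log2 fold change -0.18, adjusted p 0.0697) and with only the libraries compared (adjusted p 0.0742). Pde1c made up 65.2% ± 0.715 of the summed Pde1 RNA per kb in control contralateral and 72.5% ± 1.24 in control ipsilateral libraries. In cKO mice its share was 59.1% ± 7.78 contralaterally, where Pde1a made up 23.4% ± 8.19, and 72.9% ± 1.82 ipsilaterally.

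Pde2a, an enzyme that cGMP stimulates, fell in all 10 mice. Its values were 65.1, 65.8, 60.7, 65.4 and 63.6 CPM contralaterally and 44.5, 45.6, 46.9, 45.6 and 48.1 CPM ipsilaterally in control mice. In cKO mice they were 63.97, 56.9, 57.9, 65.2 and 58.3 CPM and 46.0, 44.7, 45.5, 49.1 and 46.3 CPM. H64, H95 and H100 again had the 3 lowest values of the cKO uninjured side. The sides did not overlap, and the log2 fold change was -0.48 (adjusted p 7.137e-09) in control and -0.38 (adjusted p 1.337e-07) in cKO mice. Pde11a fell by 0.34 on the log2 scale in control mice (adjusted p 3.823e-04, 5 of 5 mice) and by 0.18 in cKO mice (adjusted p 0.0382, 4 of 5 mice). The cKO call was lost without H61, H62, H63, H95, H99 or H100 (log2 fold change -0.20 to -0.14), with only the libraries compared (adjusted p 0.153) and with no filter on low counts (adjusted p 0.121). Pde3b, which insulin signalling activates, was called higher in cKO mice (log2 fold change 0.10, adjusted p 0.0399), a call lost without H61, H64 or H95 (0.077 to 0.10) and with the fibroblast marker score as a covariate (0.096, adjusted p 0.0834). It was also lost with only the libraries compared (adjusted p 0.0692), with no filter on low counts (adjusted p 0.0618) and with limma on log2 FPKM (adjusted p 0.212 and 0.221). Pde3a was not called.

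**Figure D4:**
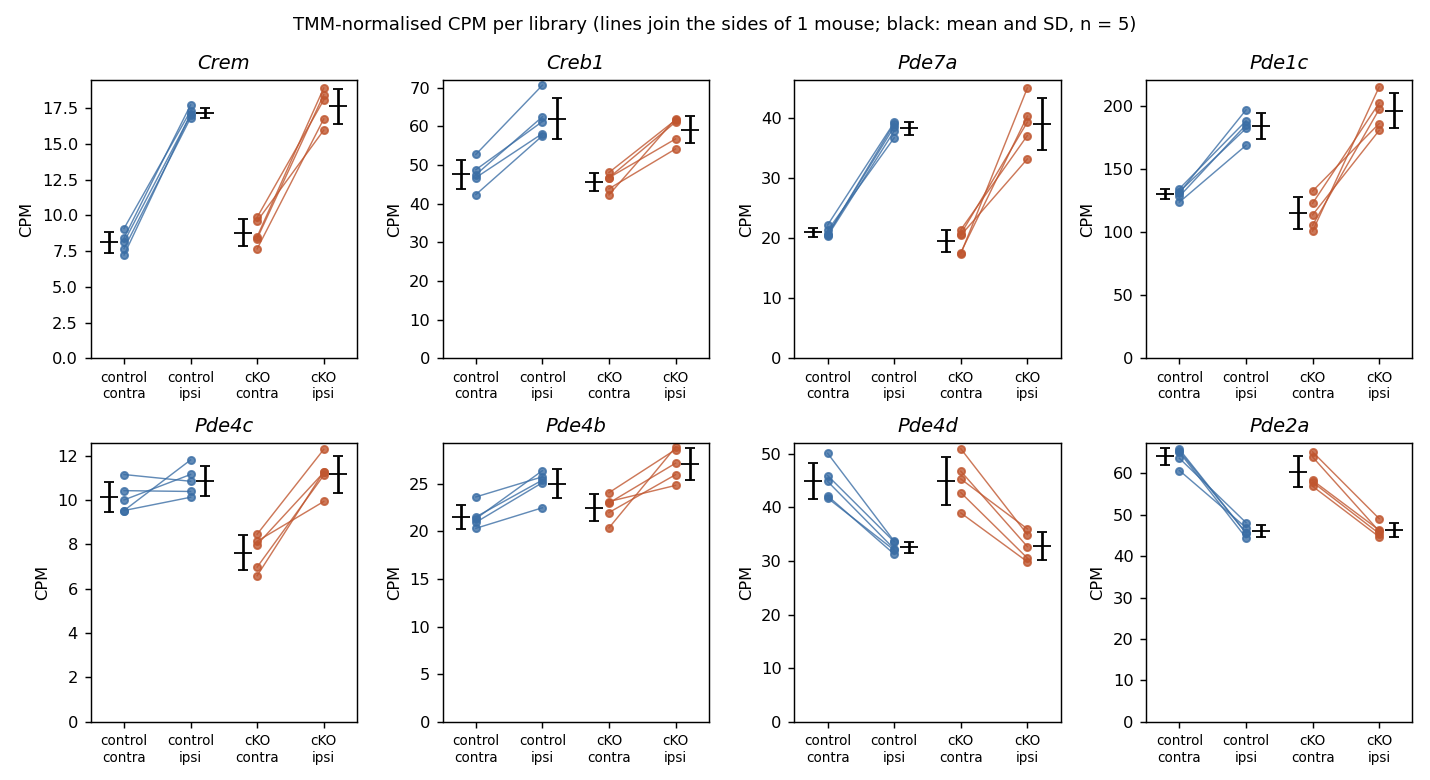
TMM-normalised CPM of 8 members in each library (points), with lines joining the 2 sides of a mouse and the mean ± SD of each group (black, n = 5). Crem, Pde7a and Pde1c are higher on the injured side in all 10 mice, Pde4d and Pde2a lower in all 10, and the Pde4c lines rise in 5 of 5 cKO and 3 of 5 control mice.

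Pde10a was called lower after injury in control mice (53.5 ± 2.39 to 45.4 ± 2.85 CPM, log2 fold change -0.24, adjusted p 0.0318). The call was lost without any 1 of the 5 control mice, H62, H63, H65, H96 or H97 (log2 fold change -0.25 to -0.19), and with the fibroblast marker score as a covariate (-0.15, adjusted p 0.0808) or with no filter on low counts (adjusted p 0.103). In cKO mice its means were 46.5 ± 8.11 and 47.1 ± 1.17 CPM. On the cKO uninjured side the low values were those of H64, H95 and H100, at 39.3, 39.9 and 43.1 CPM, against 52.8 and 57.3 CPM in H61 and H99. The same 3 libraries had the highest summed fibroblast markers of their group, at 1732, 1608 and 1338 CPM, against 835 and 802 CPM in H61 and H99. All 3 lay below the other 2 libraries of the group in 13 of 45 members, Pde1c, Pde2a, Pde4a, Pde4c, Pde4d, Pde10a and Adcy1 among them (23.2% of all genes), and above them in 9, such as Pde1a, Pde5a, Crem and Atf1 (17.7%).

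None of the 6 tested cGMP-specific phosphodiesterases was called after injury in either genotype. Pde5a, the target of sildenafil, varied widely among libraries: it was at 9.30, 5.78, 3.78, 3.89 and 5.61 CPM in control contralateral and at 7.16, 14.2, 17.1, 5.70 and 18.9 CPM in cKO contralateral libraries. On the injured side it was at 8.44, 7.92, 5.35, 7.29 and 9.62 CPM in control and at 6.65, 9.09, 7.24, 5.79 and 12.1 CPM in cKO mice. The 3 highest values were again those of H64, H95 and H100, and the genotypes overlapped on both sides. Pde1a showed a like spread, at 8.62, 11.1, 18.3, 9.39 and 22.8 CPM in the cKO contralateral libraries and 9.80 ± 1.12 CPM in the control ones. The 6 fibroblast markers summed to 667 to 1197 CPM in control contralateral, 752 to 1350 in control ipsilateral, 802 to 1732 in cKO contralateral and 723 to 1277 CPM in cKO ipsilateral libraries, with none at 0. Of these markers 0 of 6 were called between genotypes on the contralateral side, and all 6 had a positive difference, with a median of 0.81 on the log2 scale. Other lists also had every marker positive there, neutrophils 5 of 5 (median 0.75), erythroid cells 5 of 5 (0.47), macrophages 9 of 9 (0.26) and endothelium 6 of 6 (0.18). The part of these cell types in the values of Pde5a, Pde1a and Pde10a was not tested. A value with the fibroblast covariate is given for Pde10a alone among these genes.

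**Figure D5:**
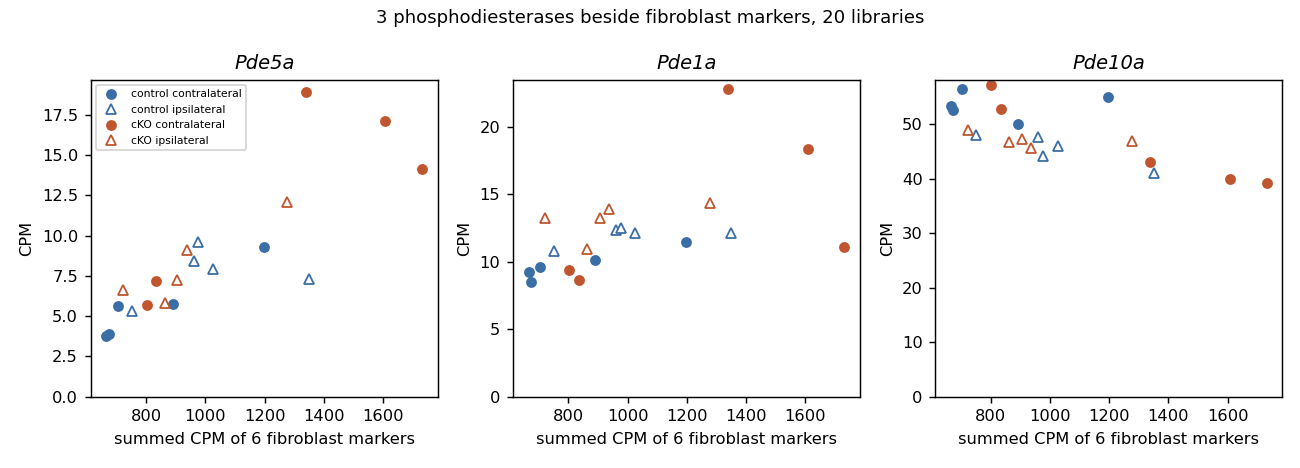
CPM of Pde5a, Pde1a and Pde10a (vertical axes) against the summed CPM of 6 fibroblast markers (horizontal axes) in the 20 libraries, by group. The cKO contralateral libraries of H64, H95 and H100, at 1338 to 1732 CPM of markers, hold the highest Pde5a values and low Pde10a values.

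Of the 9 tested adenylyl cyclases, Adcy4 was called higher and Adcy1 and Adcy5 lower in control mice, and Adcy1 and Adcy7 lower in cKO mice. Adcy1, a calmodulin-stimulated cyclase of neurons, fell by 0.26 on the log2 scale in control (98.7 ± 11.8 to 82.1 ± 6.001 CPM, adjusted p 0.0215) and by 0.23 in cKO mice (97.6 ± 9.17 to 83.1 ± 7.78 CPM, adjusted p 0.0412), in 5 of 5 mice of each. The control call was lost without H62, H63, H65 or H97 (log2 fold change -0.26 to -0.22), and the cKO call without H61, H63, H99 or H100 (-0.23 to -0.19). The fibroblast covariate also ended the control call (-0.24, adjusted p 0.0580). With no filter on low counts neither call was left (adjusted p 0.0713 and 0.141), and with only the libraries compared the cKO call was lost (adjusted p 0.0670). Adcy5, the most abundant cyclase, was at 98.4, 95.4, 95.7, 94.0 and 95.7 CPM in control contralateral and at 86.7, 85.1, 84.1, 80.3 and 87.4 CPM in control ipsilateral libraries. That fall was called (log2 fold change -0.18, adjusted p 0.00228). In cKO mice Adcy5 was at 88.1, 79.9, 93.0, 97.2 and 98.96 CPM and at 89.4, 88.6, 88.7, 88.3 and 89.0 CPM, and was not called. On the injured side all 5 cKO libraries thus lay above all 5 controls, the 1 member of 45 for which the genotypes did not overlap there, against 0.599% of all genes; the test between genotypes did not call it.

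Adcy4 was low, at 1.77 ± 0.603 CPM in control contralateral and 2.90 ± 0.375 CPM in control ipsilateral libraries, and was called higher in control mice (log2 fold change 0.71, adjusted p 0.00993). The call was lost without H63 or H97 (log2 fold change 0.56 to 0.66). Beside it, Emcn and Tek, 2 of 6 endothelial markers, were called higher in control mice and 0 of 6 in cKO mice, and their part in the Adcy4 value was not tested. Adcy7 was called lower in cKO mice (log2 fold change -0.20, adjusted p 0.0412), a call lost without H61, H63, H64, H95, H96 or H97 (-0.21 to -0.17), and with the fibroblast marker score as a covariate (-0.13, adjusted p 0.225). It was also lost with only the libraries compared (adjusted p 0.0621) and with no filter on low counts (adjusted p 0.0807). With mouse as a block, Adcy6 in cKO mice (log2 fold change -0.15, adjusted p 0.0321) and Adcy8 in control mice (-0.23, adjusted p 0.0164) were called too. Adcy2, Adcy3 and Adcy9 were not called in either genotype.

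In PKA the changes lay in the subunits Prkar2b and Prkacb. Prkar2b, the RIIβ regulatory subunit typical of neurons, fell in control mice from 407.7 ± 7.60 to 338.5 ± 6.71 CPM and in cKO mice from 381.2 ± 25.6 to 329.5 ± 15.4 CPM (log2 fold change -0.27 and -0.21, adjusted p 1.831e-05 and 2.713e-04), in 5 of 5 mice of each, with no overlap between sides. Prkacb, the Cβ catalytic subunit, fell in control mice from 352.0 ± 10.1 to 312.2 ± 6.65 CPM and in cKO mice from 332.4 ± 18.4 to 307.5 ± 8.08 CPM (log2 fold change -0.17 and -0.11, adjusted p 4.689e-04 and 0.0149). The cKO call was lost without H61 or H99 (-0.10 to -0.08), with only the libraries compared (adjusted p 0.132) and with no filter on low counts (adjusted p 0.0659). The other subunits were not called in either genotype: Prkar1a stood at 919.3 ± 44.5 and 941.4 ± 25.5 CPM on the 2 sides of control mice, Prkar1b at 668.4 ± 27.5 and 665.0 ± 13.02, Prkar2a at 349.5 ± 17.6 and 340.9 ± 6.28, and Prkaca at 280.8 ± 9.53 and 270.1 ± 6.81 CPM. In cKO mice the same subunits stood at 900.4 ± 36.4 and 912.8 ± 16.2, 650.3 ± 34 and 647.0 ± 19.1, 327.3 ± 16.5 and 332.3 ± 4.99, and 274.0 ± 9.68 and 263.4 ± 9.77 CPM, in that order. Prkar2b went from 20.1% ± 0.5002 to 17.2% ± 0.265 of the summed regulatory subunit RNA per kb in control mice and from 19.5% ± 1.39 to 17.2% ± 0.642 in cKO mice. The ratio of regulatory to catalytic RNA per kb was 3.63 ± 0.0411 and 3.74 ± 0.0739 in control and 3.61 ± 0.0520 and 3.72 ± 0.0543 in cKO libraries, contralateral and ipsilateral in turn. Beside these falls, 4 of 10 sensory neuron markers (Isl1, Rbfox3, Scn10a and Scn9a) were called lower in control and 3 of 10 (Isl1, Rbfox3 and Snap25) in cKO mice, with none at 0, where 16.0% and 15.1% of all genes were called lower. In each genotype 3 of the 10 had a positive change. The summed neuron markers ranged from 9735 ± 326 CPM in cKO ipsilateral to 10498 ± 642 CPM in control contralateral libraries, and their part in the falls was not tested.

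Of the EPAC factors, Rapgef4 was called lower in control mice (173.8 ± 5.57 to 159.0 ± 6.49 CPM, log2 fold change -0.13, adjusted p 0.0302). That call was lost without H63, H96 or H97 (-0.12 to -0.10), and with the fibroblast marker score as a covariate (-0.076, adjusted p 0.0918) or no filter on low counts (adjusted p 0.0646). In cKO mice its means were 165.8 ± 13.2 and 158.2 ± 4.27 CPM. Rapgef3 was not called, with means of 5.86 ± 1.18 and 6.64 ± 1.47 CPM in control and 6.79 ± 1.75 and 6.22 ± 1.29 CPM in cKO mice, contralateral and ipsilateral in turn. Of 3 genes that share the name but not the role, Pde12, an enzyme of mitochondrial RNA metabolism, rose (log2 fold change 0.18 and 0.27, adjusted p 0.00229 and 4.459e-05). Pde6d, a carrier of prenylated proteins, fell by 0.20 and 0.13 on the log2 scale (adjusted p 3.531e-05 and 0.00172), and Pde4dip, a scaffold that binds PDE4, was not called.

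Between genotypes on the injured side 0 of 45 members were called by edgeR, against 0.007% of all genes, and by DESeq2 0 were called. At an unadjusted p under 0.05 there was 1 member of 45, Pde4b, and 2.36% of all genes. The count of 1 was 4 with only the libraries compared (3.32% of all genes) and 0 with the fibroblast covariate (2.82%). Leaving out each mouse gave 0 or 1, and 0 without H61 or H62 (2.15% to 3.14% of all genes over the 10 mice). For the interaction of genotype and injury edgeR called 0 members, against 0.0% of all genes. At an unadjusted p under 0.05 there were 5, Adcy5, Pde10a, Pde1c, Pde4c and Pde5a, against 9.8% of all genes, with a smallest adjusted p of 0.485. Without Pde4c there were 4. The count of 5 was 1 with the fibroblast covariate (4.01% of all genes), 2 without H95 or H96 (5.55% and 6.89%), 3 without H63, H64 or H97 (6.2% to 7.59%), 8 with mouse as a replicate block (11.4%) and 10 without H99 (16.3%). DESeq2 passed 1 member, Pde4c, where 0.0385% of all genes passed, and so did edgeR without H99 (0.149%). The contralateral libraries of Pde4c enter this comparison and chose the gene, so this is no test of it. For Adcy4, Adcy5, Atf1, Pde10a and Rapgef4, called in control mice alone, and for Adcy7, Pde3b and Pde8a, called in cKO mice alone, the responses were not shown to differ between genotypes.

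The wider pathway was covered by 10 lists of 91 genes, 87 of them tested, of which control mice showed 21 higher and 21 lower after injury, and cKO mice 22 higher and 16 lower. Beside them stand the 29.9% and 31.3% of all genes called, or 43.5% and 45.5% of genes at 5 CPM or more. Of 18 genes known to be driven through cAMP response elements, 9 rose and 2 fell in control mice, where 13.8% of all genes rose and 16.0% fell. In cKO mice 8 rose and 1 fell, where 16.2% of all genes rose and 15.1% fell. The median log2 fold change of the list was 0.50 in control and 0.54 in cKO mice, and that of all genes was -0.0047 and -0.03. The largest rises were those of Vgf, a secreted neuropeptide precursor (log2 fold change 1.53 in controls and 1.94 in cKO mice), Adcyap1, which encodes PACAP, a peptide that activates adenylyl cyclase through its receptors (1.77 and 1.70), and Bdnf, a neurotrophin (1.11 and 1.30). Each was higher in 5 of 5 mice of each genotype, with adjusted p from 8.883e-16 to 4.136e-10. Pkib, an inhibitor that occupies the catalytic subunit of PKA, rose from 34.1 ± 1.72 to 77.7 ± 2.55 CPM in control mice (log2 fold change 1.19, adjusted p 7.202e-14) and by 1.22 on the log2 scale in cKO mice (adjusted p 4.320e-14). Its relative Pkia, named after its values were seen, fell by 0.12 and 0.11.

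Of 15 receptors coupled to the stimulatory G protein, 2 rose and 5 fell in control mice, and 2 rose and 7 fell in cKO mice, with median log2 fold changes of 0.004 and -0.28. Over all genes 13.8% rose and 16.0% fell in control mice, and 16.2% rose and 15.1% fell in cKO mice. The largest falls called in both genotypes were those of Htr4, a serotonin receptor (log2 fold change -0.70 in controls and -0.40 in cKO mice), Adora2a, an adenosine receptor (-0.60 and -0.52), Htr7, another serotonin receptor (-0.54 and -0.50), and Adrb1, an adrenergic receptor (-0.48 and -0.45), each in 5 of 5 mice. Of 12 A-kinase anchors, which tether PKA in the cell, 3 rose and 3 fell in control mice, and 5 rose and 1 fell in cKO mice, beside those same shares. Between genotypes, 1 of the 87 was called on the contralateral side (Vgf, log2 difference -0.39, adjusted p 0.00483), where 0.0735% of all genes were called, and 0 on the ipsilateral side (0.007%). The Vgf call was lost with only the libraries compared (adjusted p 0.317), without H95 (adjusted p 0.0563) and with limma on log2(FPKM + 1) (adjusted p 0.0540), and its adjusted p was 0.0451 with the fibroblast covariate. Vgf averaged 111.2 CPM in cKO and 145.5 CPM in control mice on the uninjured side.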

How the data were processed

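mRNA was sequenced from 20 ganglion libraries of 10 mice, as stranded paired reads of 150 bp per the labels' protocols. The submitters' processing notes name HISAT2, Picard, mm10 and mm39 without roles; the counting program and strand setting are not given in the sources used here, so reads of antisense or overlapping genes may be split wrongly. The authors deposited exonic counts per gene, not normalized, and an FPKM table. The deposited FPKM equalled CPM divided by 1 length per gene in all 21541 genes checked (tolerance 0.1%), and 93.0% of those lengths were within 5% of the whole gene span. They were used within genes only. Symbols and exon lengths came from GENCODE release M21 by identifier: 51487 of 78258 genes matched, with 98.1% of the counts. Promoters came from RefSeq (GRCm38.p6).

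The test was edgeR 4.0.16 (R 4.3.3) on these counts: filterByExpr (minimum count 10, minimum total 15) left 28564 genes, TMM scaling, and 1 robust quasi-likelihood fit across the 20 libraries, in which each group had its own mean. Adjusted p-values are Benjamini-Hochberg over all tested genes. The fit was tested on simulated data, where it missed part of the changed genes, most at the smallest fold changes but also at larger ones. A gene not called is thus not shown to be unchanged. Both sides come from the same mouse. Across genes, the departures of the 2 sides of a mouse from their group means correlated with a median of 0.308 (-0.160 to 0.668), over 0.1 in 8 of 10 mice. Mouse as a replicate block was an alternative, as were DESeq2 1.42.0, limma 3.58.1 (voom with mouse as a random effect, and log2 FPKM with pseudocounts of 1 and 0.1), RLE factors, a filter at a mean CPM of 1 or none, only the libraries compared, the range of mouse numbers or a fibroblast score as covariate, and leaving out each mouse.

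Members, lists and tests were chosen with earlier results of these data known. Values in every library are given for Pde4c and for members called in both injury comparisons with a log2 change of at least 0.5 in size. Pde4d, Pde2a, Pde5a and Adcy5 were added after their values were seen. For Pde1a, also added then, and for Pde10a, only the cKO contralateral group is given library by library. At most 4 genes per direction were named from the pathway lists. The result for 1 listed gene is not reported here. The treatment field says spinal cord injury, but the protocol's sciatic nerve transection was followed; 1 title shows a shortened mouse number, and the library name was used.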

Additional observations from a re-analysis of the deposited data

Results flagged for a closer look

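4 of the 180 groups of 5 libraries (45 members in 4 groups) held a library far from the other 4, by a gap to its neighbour of more than 0.710 of the group's range; chance gives about 9. Pde4a in the cKO contralateral group was highest in H99, at 11.8 CPM against 10.3 CPM in the next library (ratio 0.720). Pde9a, a cGMP-specific phosphodiesterase, was highest in the cKO contralateral library of H64, at 2.32 against 1.54 CPM (ratio 0.842). Pde1a was lowest in the control ipsilateral library of H65, at 10.8 against 12.2 CPM (ratio 0.781). Pde6d was lowest in the cKO ipsilateral library of H64, at 54.3 against 57.4 CPM (ratio 0.742).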

How the results depend on the processing

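Over the 39 member calls after injury and their alternatives, 754 of 819 values kept their direction and call, 65 kept their direction and lost the call, and 0 reversed; 28 calls held under every alternative (27 of 38 without Pde4c, whose libraries chose the set). The count in cKO mice, 19 in the main fit, was 12 with only the libraries compared (26.2% of all genes). That in control mice, 20 in the main fit, was then 23 (32.3% of all genes). Leaving out each mouse gave 13 to 19 in cKO mice (24.9% to 31.5% of all genes). In control mice it gave 16 to 22 (23.7% to 30.9%). With no filter on low counts, which adjusts over 56837 genes, 17 members were called in control and 14 in cKO mice, beside 12.6% and 13.1% of all genes. The contralateral genotype count of 1 (Pde4c, chosen on that comparison) was 2 with DESeq2, which called 3.64% of all genes, 0 with log2 FPKM (either pseudocount), with only the libraries compared and with the fibroblast covariate, and 0 to 10 when each mouse was left out (10 without H99, where calls went from 0.0735% to 11.5% of all genes). The interaction count of 0 was 1 with DESeq2 (0.0385% of all genes) and 0 to 1 when each mouse was left out. It was 1 without H99, where 0.149% of all genes were called. The ipsilateral genotype count was 0 when any mouse was left out, and the Pde4c difference there was 0.0296 to 0.617 CPM. The causes were not tested. Mouse as a replicate block lost Pde8a (adjusted p 0.0642) and added Adcy6, Adcy8 and Pde7b, and changed no other member call. Depth was 76.2 to 118.5 M counts, and 5 mice a group limit the precision. The labels do not say which control mice carried 1 floxed allele.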
